A study of Mus musculus with 6 samples.

Results

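The enzymes that place and remove methyl groups on DNA cytosines were examined in the mouse incisor, in samples of its mesenchymal stem cells (MSC) and of its transit amplifying cells (TAC), the dividing progeny. The set holds 10 genes chosen by function: the methyltransferases Dnmt1, Dnmt3a and Dnmt3b, the maintenance partners Uhrf1, Uhrf2 and Hells, the dioxygenases Tet1, Tet2 and Tet3, and the glycosylase Tdg. All 10 were found by gene symbol among the 23718 genes of the table, and all 10 reached the mean value of 1 required for testing, as did 15391 genes in all. MSC samples were captured from Gli1-CreER;tdT mice and TAC samples from Axin2-CreER;tdT mice, with 3 samples of each. All mice were 1 month old, labeled as C57BL/6 (a mixed background by the study's methods), and carried a tamoxifen-inducible Cre and the tdTomato reporter, which was switched on 1 day before collection. Regions were cut from frozen sections with a laser, so a sample held whichever cells lay in the captured area as well as the labeled ones. The study was about how the stem cells and their progeny act on each other, and expression profiles of both were a step toward that. The comparison here asks whether the DNA methylation machinery differs between them.

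DNA methylation at CpG sites is copied and rewritten by separate enzymes. DNMT1 methylates the new strand after replication. UHRF1 recognizes the half-methylated site and brings DNMT1 there, and HELLS is a chromatin remodeler that opens nucleosomes for that work. DNMT3A and DNMT3B set new methylation. The TET enzymes oxidize methylcytosine, and TDG cuts out the oxidized bases so that repair can put back an unmethylated cytosine. Dnmt1, Uhrf1 and Hells are known as genes of dividing cells, while Dnmt3a and the Tet genes are also used by cells that do not divide.

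Promoter sequences show one feature in which these genes differ. In windows of 300 bases, from 250 before to 50 after each start site annotated by RefSeq on GRCm38.p6, the E2F consensus was searched on both strands as the words TTTGGCGC, TTTCGCGC, TTTCCCGC and TTTGCCGC. E2F factors switch on genes of DNA synthesis. The 4 words do not occur inside one another. Of all 32851 windows, 2.26% held at least 1 word, and of the 27025 genes with windows, 2.6% did. Each word holds a CpG, and this background was not matched for CpG content or for windows per gene. All 10 members had windows, 15 in total, and 3 members held a word: Dnmt1, Uhrf1 and Hells. The search was made with the members' values known, and a match is a description of letters, not of binding. The windows of these 3 genes are shown with the words in capitals, and 1 window of Dnmt3a, which held none, is shown beside them. They lie at chr9:20952574-20952873 on the minus strand (Dnmt1), chr17:56304063-56304362 on the plus strand (Uhrf1), chr19:38930740-38931039 on the plus strand (Hells) and chr12:3806910-3807209 on the plus strand (Dnmt3a).
Dnmt1: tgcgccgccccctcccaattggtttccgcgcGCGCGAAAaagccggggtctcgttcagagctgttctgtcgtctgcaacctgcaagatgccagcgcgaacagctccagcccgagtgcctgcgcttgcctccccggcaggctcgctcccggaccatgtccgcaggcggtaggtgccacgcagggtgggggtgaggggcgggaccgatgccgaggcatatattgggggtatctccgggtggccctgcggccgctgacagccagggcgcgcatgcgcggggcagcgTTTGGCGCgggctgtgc
Uhrf1: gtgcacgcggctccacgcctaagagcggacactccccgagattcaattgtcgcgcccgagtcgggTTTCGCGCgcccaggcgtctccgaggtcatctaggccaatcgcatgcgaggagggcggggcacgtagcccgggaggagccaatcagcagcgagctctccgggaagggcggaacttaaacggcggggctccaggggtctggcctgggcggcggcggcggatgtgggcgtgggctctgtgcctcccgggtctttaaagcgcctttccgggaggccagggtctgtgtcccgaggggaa
Hells: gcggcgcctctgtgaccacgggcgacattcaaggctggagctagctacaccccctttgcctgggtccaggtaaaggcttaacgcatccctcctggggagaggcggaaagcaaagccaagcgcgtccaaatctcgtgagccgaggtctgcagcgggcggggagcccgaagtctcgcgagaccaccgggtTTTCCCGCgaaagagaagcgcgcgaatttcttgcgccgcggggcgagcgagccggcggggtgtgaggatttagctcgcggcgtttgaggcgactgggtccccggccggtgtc
Dnmt3a: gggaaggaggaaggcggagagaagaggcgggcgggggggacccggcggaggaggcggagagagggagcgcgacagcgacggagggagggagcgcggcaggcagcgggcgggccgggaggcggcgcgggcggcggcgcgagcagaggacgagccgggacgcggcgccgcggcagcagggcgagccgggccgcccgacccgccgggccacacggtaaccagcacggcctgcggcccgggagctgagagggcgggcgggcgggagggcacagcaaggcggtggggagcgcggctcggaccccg

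Dnmt1 held TTTCGCGC on the opposite strand, beginning 219 bases before the start site, and TTTGGCGC on its own strand beginning 33 bases after it. Uhrf1 held TTTCGCGC 185 bases before its start, and Hells held TTTCCCGC 62 bases before its start. Of the 15 windows, 2 upstream windows of Dnmt1 and 1 of Uhrf1 held no word, so the match depends on which start is used. The windows were also rich in CpG, the substrate of the enzymes themselves. The median over all windows was 7 CpG sites, against 33 in the Dnmt1 and Uhrf1 windows shown, 34 in Hells, 47 in Dnmt3a and 57 in Tet2, the highest of the members. The Dnmt1 window farthest upstream held 2.

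The libraries differed among themselves in ways that bear on every value. Estimated reads ranged from 20203159 to 25567244 in replicates 1 and 2 of both groups, and were 59793645 in MSC replicate 3 and 108156380 in TAC replicate 3. Between 6.38% and 7.88% of genes had no read in replicates 1 and 2, against 27.8% in TAC replicate 3 and 42.6% in MSC replicate 3. Replicates 1 and 2 are therefore given as a library set beside replicate 3. In replicate 3 each group has 1 library, so a change there has no replicate check. The driver genes did not pass the limma test (adjusted p 0.718 for Gli1 and 0.758 for Axin2). Gli1 was nevertheless higher in MSC in each numbered pair, at 256 against 153, 245 against 141 and 422 against 396. Axin2 was 58.3 in MSC against 56.8 in TAC in pair 1, 48.0 against 63.9 in pair 2 and 12 against 34.1 in pair 3. Markers of other tissues were present. The summed value of 6 smooth muscle and pericyte markers was 828 to 1479 in MSC and 88.6 to 126 in TAC, and that of 8 dental epithelium markers was 300 to 3658 in MSC and 2149 to 3338 in TAC. In MSC replicate 3, 3 of these 8 had no read and the enamel genes Amelx, Ambn and Enam were low (80.6, 181 and 7.07), while Krt14 and Krt5 were at their highest MSC values (16.0 and 15.0). Of 8 dental mesenchyme markers all were tested. In MSC replicate 3 Barx1 had no read, while others of the list stood at their highest MSC value or at their lowest. In bulk samples, fewer cells of a type and less RNA per cell cannot be told apart.

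Values are in the deposited unit, estimated reads plus 1 divided by a factor for each library, with gene length not divided out. Fold changes are differences of log2(value + 1), TAC minus MSC, and p-values come from limma with adjustment over the 15391 genes. They measure the spread between these samples. At an adjusted p under 0.05, 0 of 10 members differed, where 0.422% of all genes did. At an unadjusted p under 0.05, 1 member differed, Uhrf1, where 11.9% of all genes did. By limma voom, run on estimated reads, the counts were 0 and 1, where 0.149% and 23.2% of all genes passed. With the replicate number as a block the adjusted count was 1, Dnmt1, against 1.49% of all genes. In replicates 1 and 2 only it was 5, Dnmt1, Dnmt3a, Uhrf1, Hells and Tet2, against 44.2% of all genes. In 5 of 10 members TAC was above MSC in all 3 numbered pairs (24.6% of all genes), and in 2 it was below in all 3 (26.4%). The median fold change of the members was 0.42 on the log2 scale, and that of all genes tested was 0.03.

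**Figure D1:**
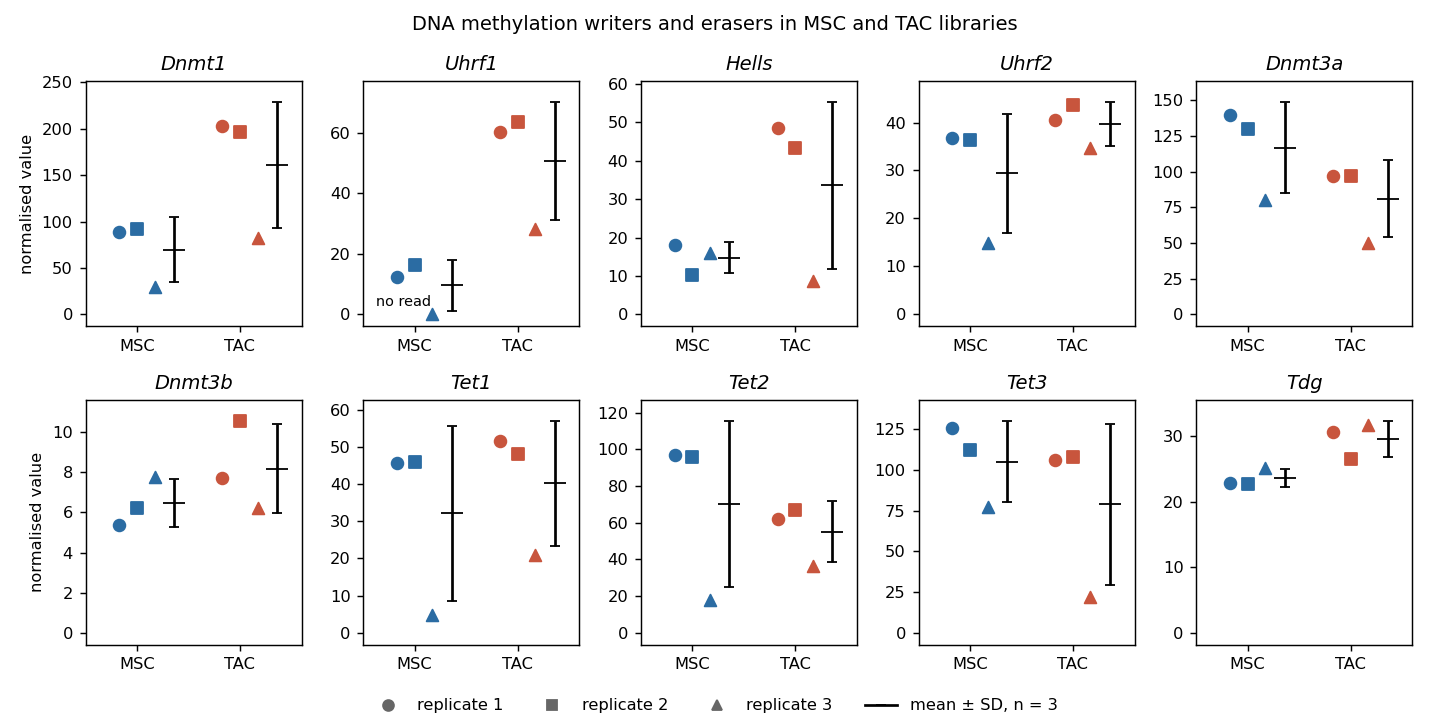
Normalized values of the 10 genes in each library (y axis, deposited unit, linear) for MSC in blue and TAC in orange, with the symbol giving the replicate number and the bar the mean ± SD of 3 samples. Uhrf1 and Tdg are the genes whose 3 TAC values all lie above their 3 MSC values, and replicate 3 often sits far from replicates 1 and 2.

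In the test of replicates 1 and 2 only, Dnmt1, Uhrf1 and Hells passed the adjusted threshold toward TAC. That test rests on the small spread between these replicates, and 44.2% of all genes passed it in either direction. Over 6 samples none of these genes passed, and Hells was lower in TAC in replicate 3. Uhrf2 did not pass in replicates 1 and 2 only (0.20 on the log2 scale, limma adjusted p 0.0921). Dnmt1 (build mm10, as for all positions given, chromosome 9, 20907209 to 20959888, minus strand) stood at 88.6, 91.7 and 29.05 in the MSC replicates, numbered 1 to 3. The TAC replicates held 203, 197 and 82.7. Replicate 3 was low in both groups, so the groups overlapped, but within each numbered pair the TAC value was higher, by 2.29, 2.15 and 2.85 times. Means were 69.8 ± 35.3 for MSC and 161 ± 67.7 for TAC (SD, n = 3 each), and limma put the log2 difference at 1.25 (SE 0.55, adjusted p 0.440). With the replicate block the SE was 0.14 and the adjusted p 0.0454, and with replicates 1 and 2 averaged the adjusted p was 1. Without MSC replicate 3 the fold change was 0.72.

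Uhrf1 (chromosome 17, 56303321 to 56323486, plus strand) had the largest fold change of the members. It was 12.4 and 16.3 in MSC replicates 1 and 2, and no read of it was found in MSC replicate 3. The TAC replicates held 60.1, 63.5 and 28.2, so every TAC library was above every MSC library. That separation held for 2 of 10 members, Uhrf1 and Tdg, both higher in TAC, where 12.3% of all genes were separated in that direction. By limma the difference was 2.98 on the log2 scale (SE 1.05, adjusted p 0.327, and 0.105 with the replicate block). Its size rests on MSC replicate 3, since it was 1.67 without that library and 9.48 by limma voom, and a fitted value for a gene without reads depends on the constant added. TAC was 4.84 and 3.89 times MSC in pairs 1 and 2. In pair 3, TAC was at least 1410-fold higher, taking 3 reads in MSC replicate 3, without the added 1, as the floor. That floor, a value of 0.02, covers counting error only.

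The missing Uhrf1 reads stood among many in that library. Of 2226 genes whose value lay between 10 and 20 in both MSC replicates 1 and 2, as Uhrf1 did, 10.1% had no read in MSC replicate 3. The same band in TAC held 2321 genes, of which 1.68% had no read in TAC replicate 3. Other genes of dividing cells were also without a read in MSC replicate 3. Among 28 S phase genes these were Cdc6, Pole, Lig1 and Ccne1, and among 20 G2/M genes they were Bub1, Bub1b, Aurkb, Cenpe and Kif11. Others of these lists had their highest MSC value in that library, 10 of the 28 and 5 of the 20, such as Pcna (9.13, 10.5 and 37.6) and Ccna2 (10.8, 9.86 and 25.2), examples chosen after their values were seen. How many of all genes had their highest MSC value there was not counted.

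Hells (chromosome 19, 38930915 to 38971051, plus strand) stood at 18.0, 10.3 and 16.1 in the MSC replicates. The TAC replicates held 48.6, 43.3 and 8.72. The TAC libraries thus included both the highest values and the lowest one. TAC was 2.71 and 4.19 times MSC in pairs 1 and 2 and 0.543 times MSC in pair 3. Over 6 samples limma gave 0.85 on the log2 scale (SE 0.65, adjusted p 0.677), 1.6 without TAC replicate 3 and 0.43 without TAC replicate 1. Reads behind the values of pair 3 numbered 2300 in TAC and 2413 in MSC.

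Uhrf2, a relative of UHRF1 that is not known to replace it in maintenance, was 36.8, 36.3 and 14.95 in MSC and 40.5, 43.8 and 34.8 in TAC. All 3 pairs were higher in TAC, by 1.1, 1.20 and 2.33 times, and most of the difference came from the low MSC replicate 3. By limma the log2 difference was 0.52 (SE 0.40, adjusted p 0.678), and 0.11 without that library.

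Of the de novo methyltransferases, Dnmt3a was lower in TAC in each pair and Dnmt3b differed in direction between pairs. Dnmt3a (chromosome 12, 3806007 to 3914443, plus strand) stood at 140, 129.9 and 80.4 in the MSC replicates. The TAC replicates held 96.8, 96.7 and 49.9. MSC was higher in each numbered pair, by 1.45, 1.34 and 1.61 times, and replicate 3 was again the low one in both groups. Means were 117 ± 31.9 for MSC and 81.1 ± 27.1 for TAC (SD, n = 3 each). By limma the log2 difference was -0.54 (SE 0.38), with an adjusted p of 0.639, 0.121 under the replicate block, 0.0266 with the library set as a batch term and 0.000202 in replicates 1 and 2 only. With replicates 1 and 2 averaged the difference did not pass. Over 20 alternatives it stayed below 0, from -0.79 to -0.23. The gene value sums transcripts from the long and the short isoform, whose start lies inside the gene, and can include reads of the antisense gene Dnmt3aos, because the use of strand was not stated.

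Dnmt3b (chromosome 2, 153649450 to 153687730, plus strand) stood at 5.38, 6.23 and 7.75 in MSC and 7.73, 10.6 and 6.20 in TAC. It was higher in TAC in pairs 1 and 2 and lower in pair 3. Its log2 fold change of 0.28 (SE 0.43, limma adjusted p 0.869) was smaller than its error and turned to -0.030 in limma voom. Dnmt3l, the cofactor of de novo methylation in germ cells, was not among the genes analysed.

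**Figure D2:**
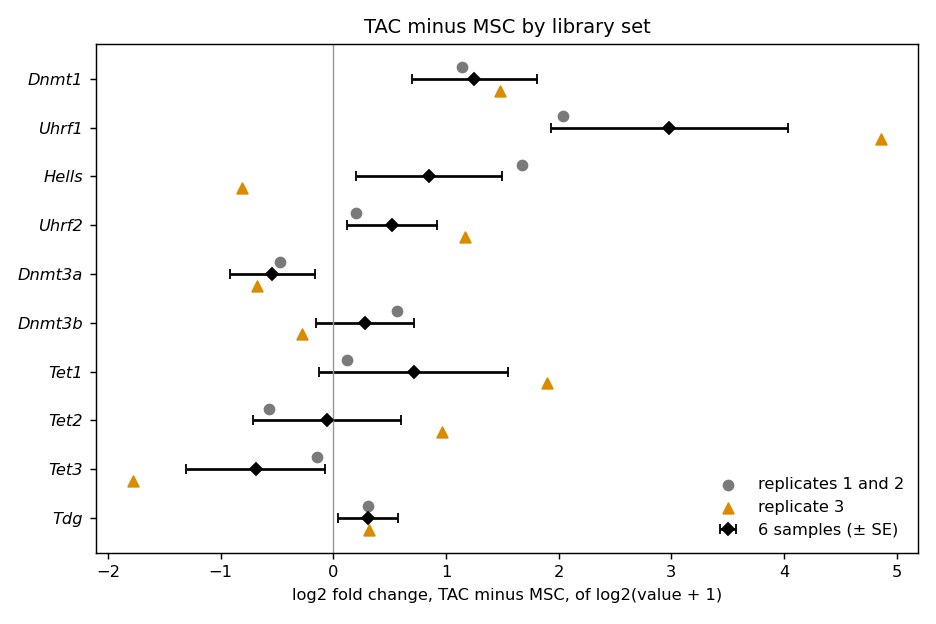
Log2 fold change, TAC minus MSC, of each gene over 6 samples (black diamonds, bar ± SE), in replicates 1 and 2 (gray circles) and in replicate 3 (orange triangles). Dnmt1 (1.14 and 1.48), Dnmt3a (-0.48 and -0.68) and Tdg (0.31 and 0.32) have both symbols on the same side of 0, while Hells, Tet2 and Dnmt3b have their circles and triangles on opposite sides of 0.

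Plain quotients of the values of genes within a library do not depend on how the library was scaled. The value of Dnmt1 divided by that of Dnmt3a was 0.633, 0.706 and 0.361 for the MSC replicates. For the TAC replicates it was 2.10, 2.04 and 1.66. The groups were well apart, and both replicate 3 libraries lay below the others of their group. On the scale of log2(value + 1) Dnmt1 minus Dnmt3a was -0.86 ± 0.50 for MSC and 0.93 ± 0.19 for TAC (SD, n = 3 each), which are 1.8 apart. An exact two-sided permutation test of 3 against 3 cannot go below p = 0.1, the value it gave. Overlap was counted on the log2(value + 1) scale, which, unlike the quotients, still depends on scaling. Of the 45 possible pairs of members, 17 had ratios that did not overlap between the groups, where 25.4% of all pairs of tested genes did not overlap. Uhrf1 was in 8 of the 17 pairs, Tet3 in 5, and Dnmt1, Dnmt3a and Tet1 in 4 each. The widest gap was that of Uhrf1 to Tet2, with ratios of 0.128 and 0.17 for MSC libraries 1 and 2 against 0.971, 0.945 and 0.780 for TAC. Ratios of Uhrf1 in MSC replicate 3 rest on its missing reads.

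Levels of different genes can be set side by side only per length, here per kilobase of all annotated exons. On that scale Dnmt1 made up 55.9%, 57.9% and 38.3% of the 3 methyltransferases in the MSC replicates, and 79.0%, 77.2% and 72.7% in TAC. The Dnmt3a share was 39.2%, 36.4% and 47.0% in MSC and 16.7%, 16.8% and 19.4% in TAC. Dnmt3b held 4.35% to 14.8% of the per-kilobase value. If the longest coding transcript was taken as the length, Dnmt1 held 32.9% to 51.3% in MSC and 68.1% to 74.6% in TAC, so the groups stayed apart while the shares moved.

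**Figure D3:**
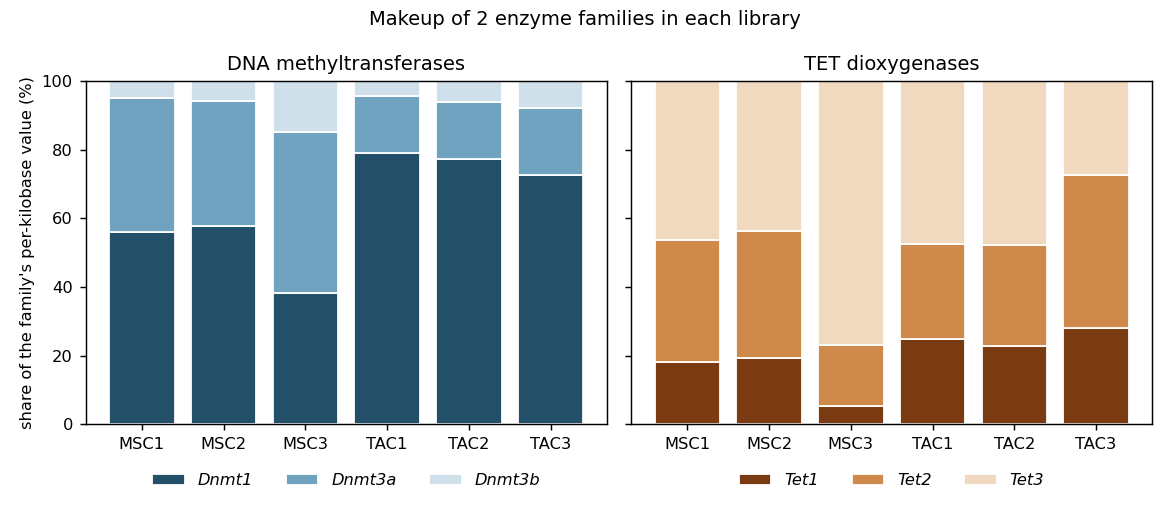
Share of each gene in its family's summed value per kilobase of exon (y axis, percent) in each of the 6 libraries, for the DNA methyltransferases on the left and the TET dioxygenases on the right. The dark Dnmt1 section reaches 38.3% to 57.9% in MSC and 72.7% to 79.0% in TAC, while Tet3 fills 77.0% of the family in MSC replicate 3 and 27.2% in TAC replicate 3.

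The 3 TET genes differed little between the groups in replicates 1 and 2, Tet2 excepted, and by more in replicate 3. Tet1 (chromosome 10, 62804570 to 62908996, minus strand) stood at 45.6, 45.8 and 4.85 in MSC and 51.5, 48.1 and 20.8 in TAC. TAC was 1.13, 1.05 and 4.29 times MSC in the 3 pairs. The log2 fold change of 0.71 (SE 0.84, limma adjusted p 0.807) turned to -0.29 without MSC replicate 3. Tet2 (chromosome 3, 133463679 to 133545139, minus strand) stood at 96.9, 95.9 and 18.0 in MSC and 61.9, 67.2 and 36.2 in TAC. It was lower in TAC in pairs 1 and 2, where MSC was 1.57 and 1.43 times TAC, and it was 2.01 times higher in TAC in pair 3. The difference in replicates 1 and 2 was -0.57 on the log2 scale (limma adjusted p 0.000145), and over 6 samples it was -0.06 (SE 0.66, adjusted p 0.987), a value that quantile normalization turned to 0.0042.

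Tet3 (chromosome 6, 83362373 to 83459084, minus strand) stood at 125.9, 112 and 77.3 in MSC and 106, 108 and 21.8 in TAC. MSC was higher in all 3 pairs, by 1.18, 1.04 and 3.54 times, and the large difference is that of replicate 3. By limma the log2 difference was -0.69 (SE 0.62, adjusted p 0.721), and 0.058 without TAC replicate 3. Per kilobase, Tet3 was 46.4%, 43.7% and 77.0% of the TET family in the MSC replicates and 47.6%, 47.7% and 27.2% in TAC. These ranges overlapped, and the share was lower in TAC in replicate 3 only. The ratio of Tet1 to Tet3 did not overlap between the groups. It was 0.363, 0.409 and 0.0628 in MSC and 0.485, 0.445 and 0.953 in TAC. In replicates 1 and 2 that separation was narrow.

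Tdg (chromosome 10, 82629828 to 82650799, plus strand) varied least from library to library. It was 22.9, 22.8 and 25.2 in MSC and 30.6, 26.5 and 31.7 in TAC, with all TAC values above all MSC values. Means were 23.6 ± 1.37 for MSC and 29.6 ± 2.77 for TAC (SD, n = 3 each), a ratio of 1.25. Its log2 fold change of 0.31 (SE 0.27, limma adjusted p 0.706) was the same in both library sets, at 0.31 in replicates 1 and 2 and 0.32 in replicate 3. Tdg shares 2968 aligned bases at 98.7% identity with its processed pseudogene Tdg-ps, and its exons overlap Glt8d2 on the opposite strand, so reads could be exchanged with both. Tdg-ps was at 0.0872 to 0.666 in MSC and 0.257 to 6.56 in TAC. Glt8d2 was at 7.27, 11.9 and 13.5 in MSC and at 4.33, 6.07 and 2.65 in TAC, opposite in direction to Tdg. Another pseudogene copy, Gm9855 (1194 bases, 99.2% identity), was at 2.47 or less in every library. A pseudogene copy of Uhrf1, Gm5648, was at 2.13 or less in every library.

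The members were set beside general genes of the cell cycle. Of 28 S phase genes 17 had an unadjusted p under 0.05, all higher in TAC, and 0 passed the adjusted threshold, with a median log2 fold change of 1.28. Mcm5 and Mcm7, subunits of the replicative helicase, had the smallest p-values of that list, with fold changes of 2.68 and 1.24 and limma adjusted p-values of 0.0909 and 0.109. Mcm2 had a fold change of 1.89 and the replication clamp Pcna 1.13 (limma adjusted p 0.179 and 0.473). Without MSC replicate 3, Pcna was 1.74 and passed, as did Mcm5 and Mcm7 (limma adjusted p 0.0429, 0.0303 and 0.0455). Of 20 G2/M genes 17 had an unadjusted p under 0.05, again all higher in TAC, with a median of 2.32. Cdk1, the kinase of mitotic entry, passed at 2.62 (limma adjusted p 0.0390, the 1 gene of the list to do so), and the call was lost without the variance trend, with replicates 1 and 2 averaged, by limma voom and without any 1 sample other than MSC replicate 3 (adjusted p 0.0523 to 0.824). Birc5 and Mki67 had 2.55 and 1.97 (limma adjusted p 0.0671 and 0.361), and Birc5 passed without MSC replicate 3, at 0.0356. The unadjusted background toward TAC was 5.42% of all genes, and that toward MSC 6.43%.

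Relative to the mean log2 value of the S phase genes in the same library, Dnmt1 stood at 3.21, 3.37 and 2.35 in the MSC replicates, and at 3.06, 3.06 and 2.18 in TAC. The ranges of that distance overlapped between the groups. Dnmt3a stood at 3.87, 3.87 and 3.78 in MSC and at 2.0, 2.04 and 1.46 in TAC, where the ranges did not overlap. The same was true of 6 of 10 members, Dnmt3a, Dnmt3b, Uhrf2, Tet2, Tet3 and Tdg, all nearer to or further below the S phase mean in TAC, and of 58.7% of all genes tested. The S phase mean itself was 2.56 to 3.27 in MSC and 4.21 to 4.61 in TAC. Uhrf1 stood at 0.47, 0.95 and -2.55 in MSC, the last without a read, and at 1.33, 1.44 and 0.66 in TAC, with TAC replicate 3 inside the MSC range.

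**Figure D4:**
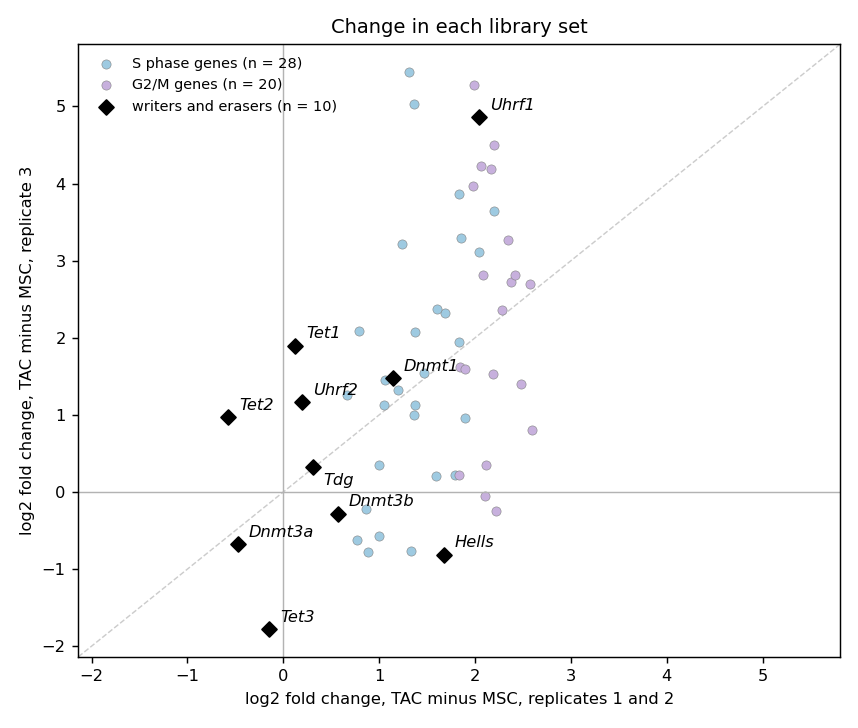
Log2 fold change, TAC minus MSC, in replicates 1 and 2 (x axis) and in replicate 3 (y axis) for the 10 genes (black), 28 S phase genes (blue) and 20 G2/M genes (purple), with the line of equal change dashed. Dnmt1, at 1.14 and 1.48, lies among the S phase genes, Uhrf1 lies high at 2.04 and 4.86, Dnmt3a lies below 0 on both axes, and Hells is at 1.68 and -0.81.

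Other genes of the pathway came from 5 lists of readers, cofactors and suppliers, of which 47 of 52 symbols were tested. Vprbp, which was tested, and Dcaf1, which was not listed, are symbols of the same gene. Of these 47, 1 passed the adjusted threshold, 10 had an unadjusted p under 0.05 toward TAC and 2 toward MSC, and the median log2 fold change was 0.22. The gene that passed was Zbtb4, a zinc finger protein that binds methylated CpG. It was 92.2, 93.2 and 115 in MSC and 28.0, 26.2 and 19.4 in TAC. Every TAC library was thus far below every MSC library. By limma the log2 difference was -1.99 (SE 0.27, adjusted p 0.0399, and 0.0442 with the replicate block). Under other settings the adjusted p lay between 4.10e-07 and 0.578, and it did not pass without MSC replicate 1 or 2 or any of the TAC replicates. All 6 smooth muscle and pericyte markers were also lower in every TAC library than in any MSC library, 5 of them past the adjusted threshold. Summed endothelium markers were 168 to 245 in MSC and 81.6 to 98.2 in TAC, with 4 of 7 lower without overlap, and all 4 tested Schwann cell markers were lower in TAC in each pair. Of all 15391 genes tested, 1878 were lower in TAC without overlap, and 26.4% were lower in all 3 pairs. The part of these cell type markers in the Zbtb4 difference was not tested.

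The list of methyl-CpG readers and their relatives held 8 genes. Of these Mbd3, a relative and a subunit of the NuRD repressor, was 46.0, 51.1 and 26.7 in MSC and 79.9, 85.3 and 81.9 in TAC. Its fold change was 1.03 (limma adjusted p 0.255). Mbd2 and Mbd4 had fold changes of 0.0041 and -0.28, with limma adjusted p-values of 0.998 and 0.854, and the sign of the first depended on scaling. Mbd4 was -0.036 without TAC replicate 3. Of 10 tested writer cofactors, Cdca7, which partners HELLS in remodeling, was 31.6, 29.0 and 10.1 in MSC and 89.6, 87.8 and 76.4 in TAC. Unlike Hells it was higher in TAC in every pair, with a fold change of 1.95 (limma adjusted p 0.148), and it passed without MSC replicate 3, at 0.0389. Trim28, the corepressor that holds methylation at imprinted loci and retroelements, had a fold change of 0.84 (limma adjusted p 0.245).

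Of the 9 tested genes that act on TET enzymes or their substrate 2-oxoglutarate, 0 had an unadjusted p under 0.05 in limma. Idh2 and Cxxc4 had the smallest p-values, with fold changes of 0.41 and -0.79 (adjusted p 0.616 and 0.622). The glycosyltransferase Ogt and Idh1 both had -0.29 (limma adjusted p 0.836 and 0.901). Leaving out MSC replicate 3 gave -0.031 for Ogt, leaving out TAC replicate 3 gave -0.57, and Idh1 turned to 0.42 in replicates 1 and 2 only. Of 11 tested genes of base excision repair, which completes the work of TDG, 3 had an unadjusted p under 0.05, all higher in TAC. The glycosylase Neil3 was 8.18, 5.39 and 0.0399 in MSC and 21.5, 23.4 and 23.3 in TAC (fold change 2.59, limma adjusted p 0.272). Apex1, the endonuclease that follows a glycosylase, had 1.36 (limma adjusted p 0.350). Of 9 tested genes of methyl donor supply, 3 had an unadjusted p under 0.05, all higher in TAC. Shmt1 and Shmt2 feed single carbons into the methyl cycle and had fold changes of 2.59 and 0.93 (limma adjusted p 0.188 and 0.338). Ahcy, which clears the byproduct that blocks methyltransferases, was 13.4, 11.1 and 0.0101 in MSC and 28.1, 27.9 and 30.1 in TAC (fold change 2.40, adjusted p 0.396). Shmt1 had no read in MSC replicate 3. Without that library the fold changes were 1.63 for Neil3, 1.17 for Ahcy and 1.88 for Shmt1, of which Shmt1 passed (limma adjusted p 0.0455).

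Germline genes that DNA methylation is known to keep silent in the body gave little to read. Of 15 on the list 3 were among the genes listed, Ddx4, Sycp1 and Dpep3, and none reached the mean value for testing. Sycp1, a protein of meiotic chromosomes, was highest. In replicates 1 and 2 its values were 1.87 and 1.04 for MSC and 0.679 and 0.504 for TAC, and neither replicate 3 library had a read.

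Genes whose values ran most like those of 3 members over the 6 libraries were found by the root mean square difference of their centered log2 values, among 7843 genes. Nearest to Uhrf1 was Polq, a DNA repair polymerase, at 0.17, followed by Ank3 and Proser2 at 0.215 and 0.225. All 3 had no read in MSC replicate 3. Nearest to Dnmt3a were Lrrfip1, Pkd2 and Cul7, at 0.0606 to 0.0681. Tet2 ran closest to Wwox, Golga2 and Daam2, at 0.0736 to 0.0831.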

How the data were processed

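RNA of laser-captured incisor regions was sequenced as single-end reads, which the authors trimmed and aligned to mm10 with TopHat 2.0.8. The methods of the study name RPKM, but the deposited values are a signal: whole multiples of 1 step per library make up 78.7% to 95.6% of low values (up to 20 reads, tolerance 0.02), whatever the gene length. They were read as estimated reads plus 1 over a size factor that the authors applied. How reads were counted, and whether by strand, is not given in the sources used here. As part of the reads came out fractional, no negative binomial count test was used, and limma voom on estimated reads is given as an alternative only. The planned log-scale test suited this unit.

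Values were analysed as log2(value + 1) in limma 3.58.1 (R 4.3.3, empirical Bayes with trend) over genes with a mean of at least 1, two-sided, with Benjamini-Hochberg adjustment and a threshold of 0.05. The difference between library sets was tested as an interaction. Fits were tested on simulated data. Members and lists were chosen with earlier results of these data known. Named were all members, the 2 smallest p-values per list, fixed genes, and the 3 nearest patterns for 3 members. Values of 1 fixed gene and 1 marker gene are not reported here.

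Replicates 1 and 2 differed by more than counting noise (chi-square per degree of freedom 10.3 in MSC and 8.33 in TAC), but far less than either did from replicate 3 (1413 to 1777). Tests within replicates 1 and 2, and the interaction, rest on that small spread, which may be technical. Same-numbered samples deviated together (correlations 0.477, 0.465 and 0.517), but MSC replicate 1 with TAC replicate 2 gave 0.462, so the pairing, taken from the numbers in the labels, mainly marks replicate 3. Exon lengths and overlaps came from GENCODE M21, where all 10 members had the deposited coordinates (1-based, the end lowered by 1), copies from BLAST 2.17.0 (95% identity over 150 bases), and promoter sequences from RefSeq.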

Additional observations from a re-analysis of the deposited data

Results flagged for a closer look

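The TAC minus MSC difference of 7 of 10 members differed between replicate 3 and replicates 1 and 2 by the limma interaction test (adjusted p under 0.05), where 57.2% of all genes did. The test rests on the spread between replicates 1 and 2. The difference in replicate 3 less that in replicates 1 and 2, on the log2 scale, was 2.82 for Uhrf1 (adjusted p 9.36e-05), -2.49 for Hells (0.000852), 1.78 for Tet1 (8.68e-05), -1.63 for Tet3 (4.21e-05), 1.54 for Tet2 (5.83e-05), 0.97 for Uhrf2 (0.00115) and 0.34 for Dnmt1 (0.0171). Hells and Tet2 had opposite signs in replicate 3 and in replicates 1 and 2, and the other 5 kept their sign.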

How the results depend on the processing

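Of 20 alternatives 6 leave the fold change as it is and bear on the test only. Under the other 14, the members kept their direction in 132 of 140 values. The 8 reversals were those of Dnmt3b by limma voom (-0.030), Tet1 without MSC replicate 3 (-0.29), Tet3 without TAC replicate 3 (0.058), and Tet2 by quantile normalization (0.0042), with replicates 1 and 2 averaged (0.20) and without MSC replicate 1, MSC replicate 2 or TAC replicate 3 (0.21 to 0.34). Mbd2 turned to -0.044 with replicates 1 and 2 averaged, to -0.012 by limma voom and to -0.011 with the total without the 10 most abundant genes, and Idh1 turned to 0.42 in replicates 1 and 2 only. Without single samples they turned to -0.14 to -0.046 (Mbd2) and 0.22 (Idh1). Over single samples left out, the ranges were -0.29 to 1.21 (Tet1), -0.84 to 0.34 (Tet2), -1.07 to 0.058 (Tet3) and -0.55 to 0.22 (Idh1). The cause was not tested.

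The count of members past the adjusted threshold was 0 over 6 samples, 1 with the replicate block (Dnmt1), 3 with the library set as a batch term (Dnmt1, Dnmt3a and Uhrf1), 5 in replicates 1 and 2 only (these 3, Hells and Tet2), and 0 in every other alternative, with 0 to 3 at an unadjusted p under 0.05, where 3.96% to 23.2% of all genes passed. Related genes numbered 1, and 2 with quantile normalization, 9 with the batch term, 27 in replicates 1 and 2 only, and 0 without the variance trend, with replicates 1 and 2 averaged or by limma voom. Leaving out 1 sample gave 0 to 3, the highest without MSC replicate 3. All genes numbered 65, and 38 with a pseudocount of 0.1, 114 with quantile normalization, 29 without the variance trend, 229 with the replicate block, 1814 with the batch term, 6796 in replicates 1 and 2 only, 10 with these averaged and 23 by limma voom. Leaving out 1 sample gave 0 to 292. The replicate block changed no call of a named gene except those of Dnmt1, Mcm2, Mki67 and Birc5, which passed with it and had an adjusted p of 1 with replicates 1 and 2 averaged. The interaction count of 7 was 7 or 8 in all 7 alternatives. A fit that averages replicates 1 and 2 has 2 samples a group. Dnmt3b could not be fitted at a mean of at least 10. The size of Uhrf1 rests on MSC replicate 3, the MSC library with the most estimated reads, in which it had none, and the fewest reads behind any other member were 201, for Dnmt3b in MSC replicate 1.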
